A study of Mus musculus with 4 samples.

Results

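The 10 immediate early genes described here are Fos, Fosb, Jun, Junb, Jund, Egr1, Atf3, Ier2, Ier3 and Myc, found by symbol among the 32285 genes of the deposited count tables. They were measured by Visium spatial transcriptomics in 4 heart sections of adult ICR mice, 1 section from 1 mouse at each of days 1, 4, 7 and 14 after permanent ligation of the left anterior descending coronary artery, which causes a myocardial infarction (MI). The earliest section is day 1 in the sample labels, which are followed here, although one passage of the published text gives it a later day. All 4 mice were operated on at 12 weeks of age, and no sham or uninjured heart was analysed here. The fresh-frozen sections were 10 µm thick, and a Visium spot captures the RNA of a small patch of tissue that can hold several cells of different types. In such patches, fewer cells of a type and less RNA per cell cannot be told apart. With 1 mouse per day, a difference between days cannot be told apart from a difference between mice or sections, so the days are given side by side with intervals for counting error only.

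Immediate early genes are transcribed within minutes of a signal such as a growth factor, stretch or injury, without new protein synthesis, and their messages are short-lived. Fos and Fosb proteins pair with Jun, Junb or Jund to form AP-1, a transcription factor complex, and Atf3 belongs to the same leucine zipper superfamily. Egr1 is a zinc finger factor driven by serum response factor, Myc pairs with Max to drive growth genes, and Ier2 and Ier3 are small induced proteins, the latter known for its part in cell survival. In the heart, these genes are known to be switched on by ischemia and by mechanical load.

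After removal of spots in which more than 1% of the unique molecular identifiers (UMIs, counted transcript molecules) were hemoglobin, 7503 of 9102 spots were kept, with section medians from 5188 to 8799 UMIs. All 6 cardiomyocyte markers on the list used (Myh6, Tnnt2, Atp2a2, Ryr2, Mb and Actc1) were detected in the lowest and highest quartile of every section and of both rankings used below. The 4 sections shared 1332 spot barcodes of 3178 different ones, since barcodes name fixed positions on a Visium slide. On day 7, 108 of 1848 kept spots had more than 1% of their UMIs from fast skeletal muscle genes, and no kept spot of the other sections did. Within each section, spots were ranked by the share of their UMIs from the border-zone stress genes Ankrd1, Flnc, Xirp2 and Nppb and cut into 4 equal classes, the quartiles (1 lowest, 4 highest), and ranked again by the share of the matrix genes Col1a1, Col3a1, Col1a2, Fn1 and Sparc. Levels are given as CPM, the UMIs of a gene divided by all UMIs of the spots named and scaled to a total of 1000000.

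The DNA just upstream of 3 members is shown because Fos and Atf3 had the largest ratios between days 1 and 14 and Jun one of the smallest. The start regions of Fos and Atf3 share the letters TGACGT, and no link between sites and levels was tested. Each line gives the 150 bases just before the RefSeq transcript start (GRCm38.p6), written 5′ to 3′ on the gene's strand.
Fos (chr12:85473740-85473889, plus strand): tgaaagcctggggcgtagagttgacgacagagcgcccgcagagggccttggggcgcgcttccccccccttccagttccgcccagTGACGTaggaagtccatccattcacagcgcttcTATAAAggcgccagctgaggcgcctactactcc
Jun (chr4:95052223-95052372, minus strand): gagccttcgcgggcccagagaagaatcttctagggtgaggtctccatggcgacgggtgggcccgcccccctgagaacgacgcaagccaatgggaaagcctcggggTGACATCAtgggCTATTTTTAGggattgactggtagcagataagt
Atf3 (chr1:191183334-191183483, minus strand): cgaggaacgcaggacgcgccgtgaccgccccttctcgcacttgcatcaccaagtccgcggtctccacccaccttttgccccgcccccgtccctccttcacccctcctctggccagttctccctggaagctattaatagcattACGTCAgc
Capitals mark TGACGT and the TATA box TATAAA in Fos, TGACATCA and the MEF2 site CTATTTTTAG in Jun, and ACGTCA, which is TGACGT on the other strand, in Atf3. In Fos the TGACGT lies between positions -66 and -61 and the TATAAA between -33 and -28, counted from the start. In Jun the TGACATCA lies between -45 and -38 and the MEF2 site between -33 and -24. In Atf3 the ACGTCA lies between -8 and -3. Both strands were searched in 300-base windows, 250 before and 50 after the start. TGACGT was found in 7.51% of 32851 promoters, TATAAA in 13.6%, TGACATCA in 3.62% and the MEF2 site in 0.110%, which is 36 promoters. TGACGT is contained in the full cyclic AMP response element TGACGTCA, which was in 1.79% of promoters. That element, the AP-1 site TGACTCA (5.20%) and the CArG box (1.63%) were in none of the 7 member windows, and a window without these letters says nothing of the factor. The GC box GGGCGG was in 5 of the 7 member windows and in 35.7% of all promoters. TGACGT, TGACATCA and the MEF2 site were chosen after the letters had been seen, and Egr1, Ier2 and Myc had no entry. In the GENCODE annotation the Jund gene starts at chr8:70698949, downstream of the window searched. There the Atf3 gene spans chr1:191170296-191218039, so its RefSeq start lies inside the gene. Positions and counts hold for the RefSeq starts only.

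All 10 genes were at their lowest on day 14, and 9 of them at their highest on day 1. Their summed level was 375 CPM at day 1 (95% interval 364 to 386), 251 at day 4 (243 to 260), 233 at day 7 (223 to 243) and 108 at day 14 (103 to 113). The intervals of days 4 and 7 nearly touched, and the other days were well apart. The summed level on day 1 was 3.48-fold that on day 14 (3.29 to 3.69). How many of all genes followed such a course was not counted, so a shift shared by most genes cannot be told apart.

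Among the Fos genes, the subunits of AP-1 that need a Jun partner, Fos was at 13.0, 7.87, 6.56 and 1.21 CPM on days 1, 4, 7 and 14. Fos was 10.7-fold higher on day 1 than on day 14 (6.64 to 18.3), and only days 4 and 7 overlapped. Fosb, with 56 UMIs in all, was at 2.18, 0.976, 1.08 and 0.382 on the same days. For Fosb neighbouring days overlapped, day 1 with days 4 and 7 included, and day 1 was 5.70-fold day 14 (2.29 to 16.9). The interval of the Fosb ratio of day 1 to day 4, 2.23, lay above 1 (1.12 to 4.62).

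The 3 Jun genes, which can pair with each other or with Fos proteins, differed in their course. Junb, an early-responding member, was at 50.3, 28.8, 25.0 and 9.29 CPM on days 1, 4, 7 and 14. Its level on day 1 was 5.41-fold that on day 14 (4.51 to 6.53). Jun was at 41.9, 34.9, 39.6 and 20.6, so that day 7 overlapped both other early days and day 14 overlapped none. Days 1 and 4 did not overlap for Jun, with a ratio of 1.20 (1.06 to 1.36). Jund, the member with the most constant expression in most tissues, was at 42.8, 32.3, 50.4 and 20.7 and was the one gene highest on day 7. Its interval there (45.9 to 55.1) overlapped that of day 1 (39.2 to 46.7), but the ratio of day 1 to day 7, 0.85, had an interval below 1 (0.75 to 0.97). The ratio of day 1 to day 14 was 2.04 for Jun (1.77 to 2.35) and 2.06 for Jund (1.79 to 2.38).

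Egr1 was at 32.5, 14.0, 20.7 and 7.19 CPM on days 1, 4, 7 and 14. No 2 of these intervals overlapped, and day 7 was above day 4. Atf3, a stress-induced member of the ATF/CREB family, was at 22.8, 14.4, 12.1 and 2.23, a 10.3-fold range from day 1 to day 14 (7.20 to 15.0). Myc was at 15.3, 7.11, 3.87 and 2.61, and days 7 and 14 overlapped.

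Ier3 was at 119, 84.3, 46.6 and 25.8 CPM, in the order of the days with no overlap, and 4.60-fold higher on day 1 than on day 14 (4.11 to 5.14). Ier2 was at 35.5, 26.5, 27.1 and 17.6, with days 4 and 7 overlapping. The ratio of day 1 to day 14 for Ier2, 2.01 (1.73 to 2.35), was close to those of Jun and Jund, and each of the other 7 genes had a ratio of 4.53 or more.

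**Figure D1:**
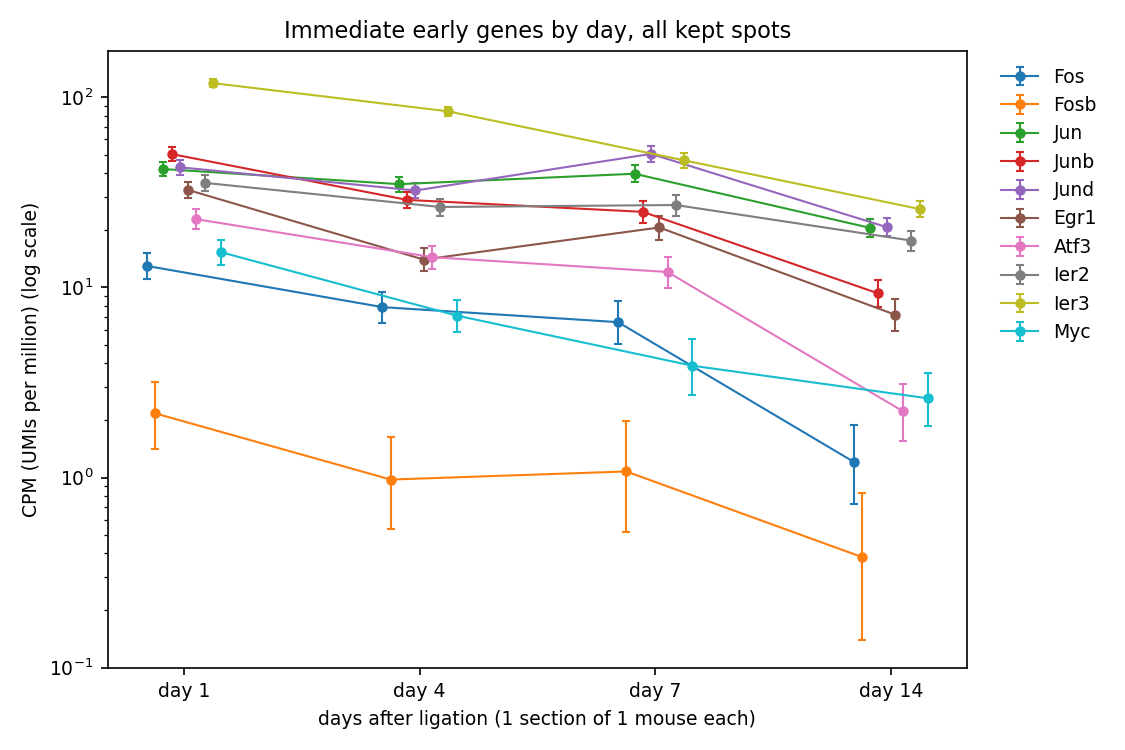
CPM of each immediate early gene (log scale) in the 1 section of each day, over all kept spots, with exact Poisson 95% intervals as bars. All 10 genes are lowest on day 14, with Fos at 1.21 and Atf3 at 2.23 furthest below their day 1 levels, and Jund alone is highest on day 7.

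On day 1 the genes were concentrated in the spots with the highest stress gene share. Their summed level in quartiles 1 to 4 was 160, 164, 373 and 778 CPM, so that the lower 2 quartiles were alike and the highest held 55.3% of member UMIs against 26.7% of all UMIs. The ratio of the highest to the lowest quartile was 4.85 (4.39 to 5.36).

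Every member was higher in the highest than in the lowest quartile of the day 1 section. No count over all genes of that section was set beside this, so how far other genes shared the rise was not tested. Myc was at 0.671 CPM (2 UMIs) in the lowest quartile and 37.0 in the highest, a 55.1-fold ratio with a wide counting interval (14.9 to 461). Egr1 was at 7.38 and 77.2, a 10.5-fold ratio (6.75 to 17.0), and Junb at 10.7 and 106, a 9.90-fold ratio (6.88 to 14.7). These 3 genes gave the largest measured ratios.

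Fos was at 5.70 and 29.8 CPM in the same quartiles (5.22-fold, 3.10 to 9.34). Fosb had no UMI in the lowest quartile and 22 in the highest, which was at least 6.85-fold higher when the lowest quartile is set to a floor of 3 UMIs. Jun was at 29.9 and 64.3 (2.15-fold, 1.67 to 2.79) and Jund at 36.2 and 64.0 (1.77-fold, 1.39 to 2.25). The ratios of Jun and Jund were thus below that of every other member. Atf3 was at 12.1 and 50.8 (4.21-fold, 2.92 to 6.22), Ier2 at 17.4 and 69.3 (3.97-fold, 2.93 to 5.48) and Ier3 at 40.3 and 272 (6.75-fold, 5.57 to 8.24).

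Later days had another shape, with the middle quartiles lowest. On day 4 the summed level was 249.6 in the lowest quartile, 170 and 221 in the middle quartiles and 373 in the highest. On day 7 it was 324, 178, 172 and 278, and the highest quartile lay below the lowest by 0.23 on the log2 scale (log2 ratio -0.23, -0.38 to -0.07). On day 14 it was 114, 92.1, 101.5 and 128, a log2 ratio of 0.17 whose interval included 0 (-0.04 to 0.37).

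Egr1 in the lowest and highest quartile was at 12.0 and 26.7 CPM on day 4 and at 26.7 and 20.8 on day 7. Ier3 was at 64.5 and 133 on day 4, at 64.3 and 57.3 on day 7 and at 32.4 and 27.3 on day 14. Jun was the one member higher in the highest quartile in all 4 sections, though its day 7 interval included equality, at 34.0 and 47.2 on day 4, 48.1 and 50.04 on day 7 and 15.7 and 27.3 on day 14.

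The stress quartiles differed between days in the share of their spots that also ranked in the highest matrix quartile. In the lowest stress quartile this share was 5.07%, 40.2%, 53.2% and 40.2% on days 1, 4, 7 and 14, and in the highest it was 50.2%, 29.8%, 24.9% and 37.6%. In the third stress quartile of day 1 it was 39.3%. On day 7 the lowest quartile also held 68 of the 108 skeletal muscle spots. Without those 108 spots the day 7 levels were 326, 174, 173 and 283, and the log2 ratio of highest to lowest was -0.21 (-0.37 to -0.04). Since ranks were made within a section, a quartile did not hold the same stress gene level on each day. The stress genes of the highest quartile were at 13184, 5367, 6280 and 2574 CPM on days 1, 4, 7 and 14.

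**Figure D2:**
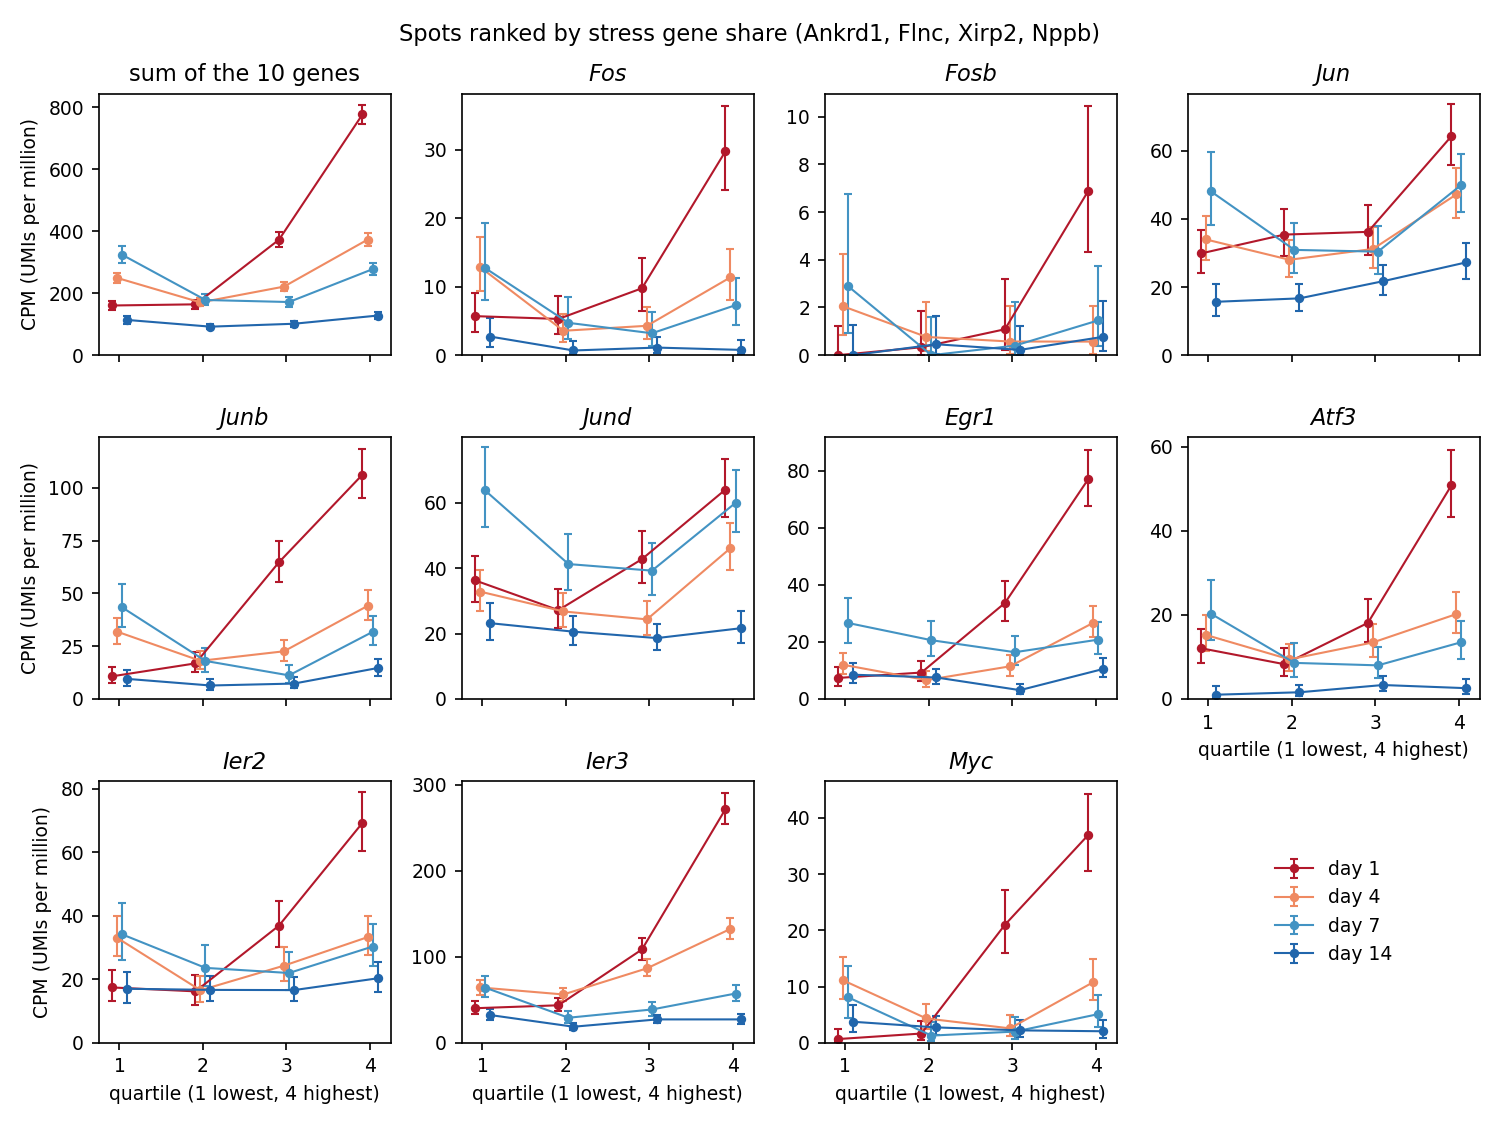
CPM of the 10 genes together and of each gene in quartiles of spots ranked by stress gene share within each section, with exact Poisson 95% intervals. On day 1 the summed level runs from 160 to 778 across the quartiles, whereas on day 7 the lowest quartile (324) lies above the highest (278).

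A test over the 4 sections asked whether the members differed between the highest and lowest stress quartile across days. UMIs were summed per section and quartile and fitted with edgeR's quasi-likelihood test with section as a block, so the sections, taken on different days, were the replicates. Of the 5 members with at least 1000 UMIs, none passed an adjusted p of 0.05 (Benjamini-Hochberg), against 1.01% of 4765 genes called higher and 0.294% called lower. At an unadjusted p under 0.05 there were 2 members and 663 genes, and DESeq2 also called 0 members. The log2 fold changes were 0.47 for Jun (SE 0.14, edgeR adjusted p = 0.144, higher in 4 of 4 sections), 0.73 for Junb (SE 0.47, 3 of 4), 0.17 for Jund (SE 0.15, 2 of 4), 0.41 for Ier2 (SE 0.28, 3 of 4) and 0.79 for Ier3 (SE 0.35, 2 of 4). Their median was 0.47, beside -0.01 for all genes tested. With genes of at least 100 UMIs, 0 of 9 members were called against 0.525% of 11617 genes called higher and 0.31% called lower, and the 4 further members had values of 0.13 for Fos (SE 0.39, higher in 1 of 4 sections), 1.08 for Egr1 (SE 0.47, 3 of 4), 0.62 for Atf3 (SE 0.33, 3 of 4) and 0.66 for Myc (SE 0.77, 1 of 4). Leaving out the day 1 section turned Ier2 to -0.05, Fos to -0.60 and Myc to -0.41, and DESeq2 gave -0.02 for Fos.

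The highest stress quartile was also compared with the middle quartiles, which held matrix-rich spots too, from 5.30% to 39.3% of a quartile. Again 0 of 5 members passed in edgeR, with adjusted p from 0.0536 for Jun to 0.105 for Ier2, against 0.231% of genes called higher and 0.042% called lower. With genes of at least 100 UMIs it was 0 of 9, against 0.172% called higher and 0.0603% called lower. There 8 members and 2877 genes had an unadjusted p under 0.05. DESeq2 called 2 of the 9, beside 214 of 11617 genes called higher and 480 called lower. All 5 members with at least 1000 UMIs were higher in 4 of 4 sections by CPM. By CPM the median tested gene was also higher, by 0.23 on the log2 scale over the 4 sections. On day 14 the log2 CPM ratios of Jund (0.14, -0.25 to 0.53), Ier2 (0.29, -0.13 to 0.69) and Ier3 (0.24, -0.11 to 0.59) had intervals including 0. So had Ier2 on day 7 (0.41, -0.02 to 0.84). The edgeR log2 fold changes were 0.48 for Jun, 1.04 for Junb, 0.43 for Jund, 0.57 for Ier2 and 0.89 for Ier3. All 5 had an unadjusted p under 0.05, as had 1718 of 4765 genes. The number of members called depended on the setting. It was 5 with libraries scaled to total UMIs and 4 with DESeq2 (Jun, Junb, Jund and Ier3). The same 4 were called without the day 1 section. The calls over all 4765 genes moved too, from 11 higher and 2 lower in the reported fit to 1129 and 213 with total UMIs. DESeq2 called 319 genes higher and 515 lower, and the fit without the day 1 section 628 and 581.

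When the quartile of spots richest in matrix genes was removed from each section before ranking, 4 of 5 members rose from the lowest to the highest stress quartile, against 16% of genes called higher and 17.2% called lower. The log2 fold changes were 1.63 for Junb (SE 0.30, edgeR adjusted p = 0.00389), 0.62 for Jun (SE 0.16, adjusted p = 0.010), 0.44 for Jund (SE 0.14, adjusted p = 0.0251) and 1.01 for Ier3 (SE 0.33, adjusted p = 0.0371). Ier2 was at 0.74 (SE 0.28, adjusted p = 0.0544). All 5 were higher in 4 of 4 sections by CPM, by which the median tested gene was also higher, by 0.26 on the log2 scale. With genes of at least 100 UMIs, 6 of 9 members were called against 8.04% of genes called higher and 9.14% called lower, namely Fos (1.41), Jun (0.56), Junb (1.57), Egr1 (1.65), Atf3 (1.06) and Myc (2.42), and there Jund, Ier2 and Ier3 did not pass. Fos was higher in 2 of 4 sections and Myc in 3 of 4. Both counts fell to 0 members without the day 4 section. Few genes of any kind were then called, 12 higher and 12 lower of 4765. With genes of at least 100 UMIs it was 60 and 57 of 11617. Of the 5 members, Jun and Junb were called without the day 1 or the day 7 section and all 5 without the day 14 section. Without day 1, 7 or 14, 383, 591 and 849 of 4765 genes were called higher and 363, 630 and 889 lower. Of the 9 members, only Junb was called without the day 1 section, 5 were without day 7 and 6 without day 14. Over all 11617 genes, 411, 780 and 1024 were called higher in these fits and 473, 813 and 1244 lower. DESeq2 called 4 members (Junb, Egr1, Ier3 and Myc), losing Fos, Jun and Atf3, beside 557 genes called higher and 763 called lower. On the same spots, 5 of 5 members rose from the middle to the highest quartile (19.2% of genes called higher, 18.3% called lower), and 6 of 9 did with genes of at least 100 UMIs (10.7% and 9.99%). Cell type markers also differed between the lowest and highest stress quartile of these spots. The 5 tested of 6 myofibroblast markers rose (median log2 fold change 2.09), as did 3 of 5 tested macrophage markers. The 3 tested of 6 smooth muscle markers, Tagln, Des and Acta2, rose too. Acta2 is also 1 of the 5 myofibroblast markers, and Myh11, Cnn1 and Mylk were not tested, so these rises do not stand for smooth muscle as such. S100a9, the 1 tested of 6 neutrophil markers, rose (2.35), and 5 of 6 cardiomyocyte markers fell. The part of these cells in the member levels was not tested.

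Markers of other cell types moved with the stress quartiles on day 1. From the lowest to the highest quartile the summed level of the 6 neutrophil markers went from 18.5 to 300 CPM, the 6 myofibroblast markers from 61.7 to 444, the 6 macrophage markers from 210 to 566 and the 6 smooth muscle markers from 1041 to 3528. The 6 cardiomyocyte markers went from 49391 to 29833 and the 6 fibroblast markers from 2529.5 to 1214. The smooth muscle sum was higher in the highest quartile of all 4 sections, ranging from 857 to 1298 in the lowest and from 1132.5 to 3528 in the highest. In the edgeR test over the 4 sections, however, Des alone rose among the 3 tested of these 6 markers. Their median log2 fold change was -0.03, so the sum does not stand for the smooth muscle list as a whole. Cthrc1 among the myofibroblast markers was at 0 in the lowest quartile of day 1, and Mmp8 among the neutrophil markers was at 0 in the lowest quartile on days 1, 7 and 14 and in the highest on days 4 and 7. The day 1 directions did not all hold later. On days 4, 7 and 14 the neutrophil sum went from 37.8 to 16.2, from 57.9 to 12.4 and from 103 to 18.8. The macrophage sum went from 908 to 903, from 973 to 611 and from 409 to 247 on these days. The myofibroblast sum went from 1342 to 2555, from 2682 to 1703 and from 309 to 277. The fibroblast sum was higher in the highest quartile on these days, and the cardiomyocyte sum was so on days 7 and 14. The part of these cells in the member levels was not tested.

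Along the matrix ranking the members were higher in the richest spots on every day. Their summed level in quartiles 1 to 4 of the day 1 section was 166, 225, 483 and 691 CPM. The day 4 section had 146, 144, 299 and 534, the day 7 section 129, 161, 258 and 499, and the day 14 section 80.8, 93.3, 100.3 and 239. The ratio of the highest to the lowest quartile was 4.17 (3.78 to 4.61), 3.66 (3.33 to 4.03), 3.88 (3.40 to 4.44) and 2.95 (2.56 to 3.41) on these days. Scaled to total UMIs, as CPM is, the median tested gene was also higher in the highest quartile, by 0.62 on the log2 scale over the 4 sections. On day 14 neighbours among the first 3 quartiles overlapped and the highest stood apart. The highest was also the shallowest quartile of that day, with a median of 2171 UMIs per spot against 9181.5 in the lowest. Ranks were again made within a section. The matrix genes of the highest quartile were at 4041, 47066, 51574 and 12724 CPM on days 1, 4, 7 and 14.

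**Figure D3:**
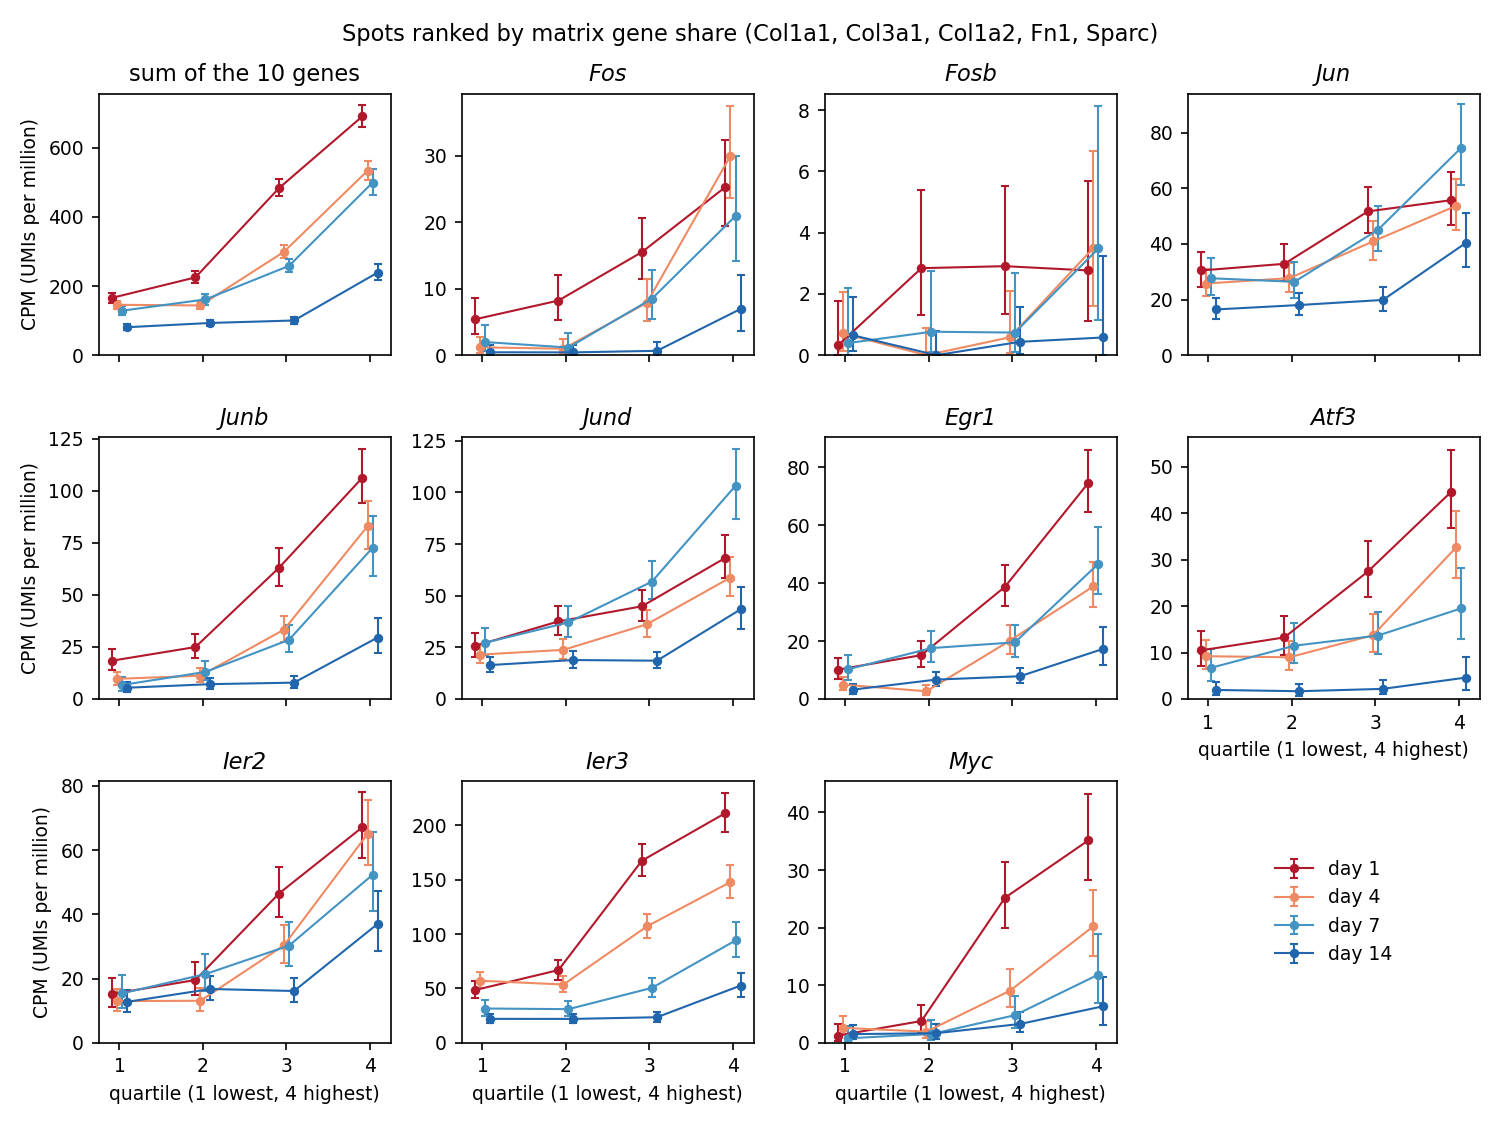
CPM of the 10 genes together and of each gene in quartiles of spots ranked by matrix gene share within each section, with exact Poisson 95% intervals. In each of the 4 sections the summed level is highest in quartile 4, at 691, 534, 499 and 239 on days 1, 4, 7 and 14.

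Fos, Junb and Myc had steep matrix gradients. In the highest quartile Myc was at 35.2, 20.2, 11.9 and 6.36 CPM on days 1, 4, 7 and 14, against 1.27 (4 UMIs), 2.60, 0.789 (2 UMIs) and 1.51 in the lowest. Fos was at 25.3, 30.0, 20.9 and 6.94 CPM in the highest quartile and at 5.39, 1.18, 1.97 and 0.432 (2 UMIs) in the lowest, with the largest ratio on day 4 (25.4-fold, 10.4 to 80.4). Junb was at 106, 82.9, 72.5 and 29.5 CPM in the highest quartile and at 18.4, 9.68, 6.71 and 5.40 in the lowest. The lowest and highest Junb intervals did not overlap on any day, and its ratio ranged from 5.46-fold on day 14 to 10.8-fold on day 7.

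Egr1 was at 74.7, 38.9, 46.7 and 17.3 CPM in the highest matrix quartile of the 4 days and at 10.1, 4.96, 10.3 and 3.24 in the lowest. Jund was at 25.7 and 68.3, 21.5 and 58.8, 27.2 and 103, and 16.4 and 43.4 on the 4 days, so that its day 7 level in the richest spots was the highest of its 16 values. Jun had the smallest ratio of the 10 members on days 1, 4 and 7, at 1.83-fold, 2.09-fold and 2.70-fold, with intervals that overlapped those of other members. Atf3 was at 10.5 and 44.6 on day 1 and at 1.94 and 4.63 on day 14, where the intervals overlapped. Fosb had 1 to 9 UMIs in each of these quartiles, and its ratio could not be told from 1 on days 7 and 14.

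All 5 members with at least 1000 UMIs rose from the lowest to the highest matrix quartile in the edgeR test, against 37% of 4764 genes called higher and 34.7% called lower. The log2 fold changes were 2.26 for Junb (SE 0.19, adjusted p = 4.04e-06), 1.37 for Ier2 (SE 0.18, adjusted p = 4.34e-05), 0.98 for Ier3 (SE 0.20, adjusted p = 0.000605), 0.95 for Jund (SE 0.13, adjusted p = 4.95e-05) and 0.57 for Jun (SE 0.13, adjusted p = 0.00189). Their median was 0.98, beside 0.03 for all genes tested, and each was higher in 4 of 4 sections. With genes of at least 100 UMIs, 8 of 9 members were called against 29.5% of genes called higher and 27.7% called lower, with 2.52 for Fos (SE 0.40), 2.52 for Myc (SE 0.36), 1.82 for Egr1 (SE 0.29) and 0.93 for Atf3 (SE 0.22), whereas Jun was at 0.31 (adjusted p = 0.0679). Scaling to total UMIs moved the median of all genes by 0.59 on the log2 scale and turned the calls from 1763 higher and 1652 lower to 3001 higher and 838 lower, and the 5 members stayed called higher. After removal of the quartile richest in stress genes before ranking, 5 of 5 members were called (36% of genes called higher, 33.6% called lower), and 8 of 9 with genes of at least 100 UMIs (27.4% and 25.9%).

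**Figure D4:**
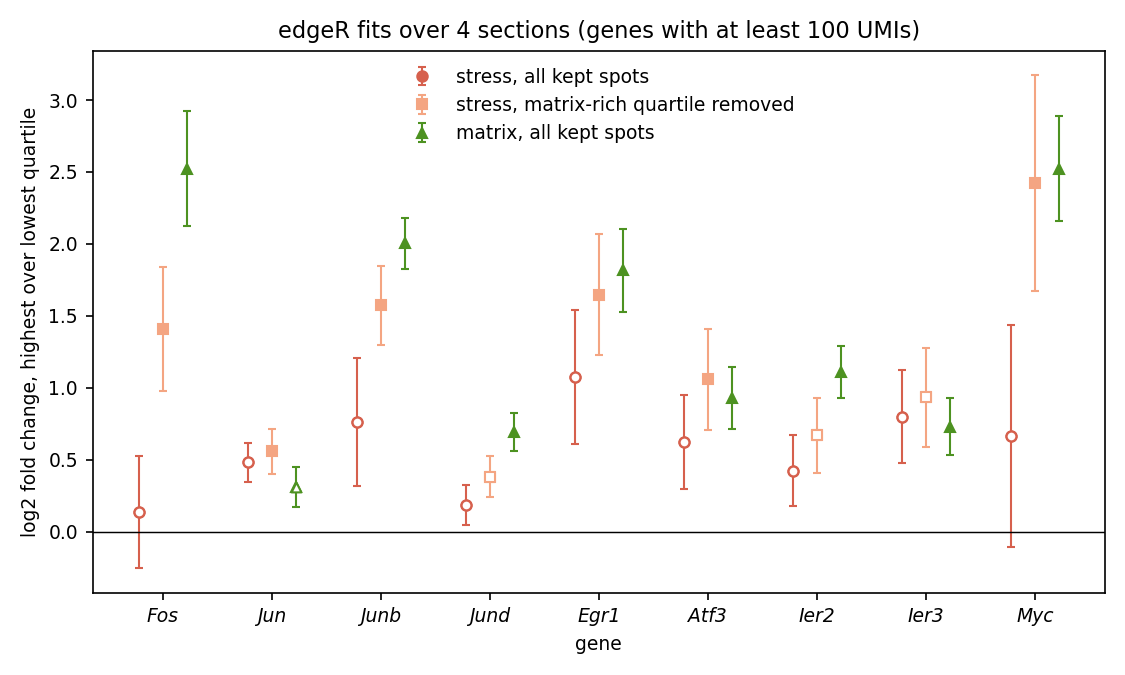
Log2 fold changes of the 9 members with at least 100 UMIs between the highest and lowest quartile of spots, from edgeR fits over 4 sections, with standard errors as bars and open symbols where the adjusted p was 0.05 or above. No member passed along the stress ranking over all kept spots, 6 passed once the matrix-rich quartile was removed, and 8 passed along the matrix ranking, from 0.69 for Jund to 2.52 for Fos and Myc.

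Cell type markers moved with the matrix ranking in the same test. All 6 cardiomyocyte markers fell (median log2 fold change -1.99), and the 5 tested of 6 macrophage markers (median 2.14), the 5 tested of 6 myofibroblast markers (median 5.39) and the 1 tested of 6 neutrophil markers, S100a9 (3.57), rose. Over the 4 sections the summed cardiomyocyte markers ranged from 44025 to 49709.6 CPM in the lowest quartile and from 9639 to 37424 in the highest. The summed macrophage markers ranged from 137 to 200 and from 653 to 2132, and the summed myofibroblast markers from 53.2 to 136 and from 503 to 6141. Of 6 tested fast skeletal muscle markers, 4 rose (median of the 6, 3.12). From the lowest to the highest quartile of day 7 their list's sum went from 72.2 to 1253 CPM. There mesothelium markers went from 15.4 to 167 and adipocyte markers from 5.13 to 76.7. The 108 skeletal muscle spots of day 7 were not removed for the matrix ranking. In the lowest quartile Cthrc1 was at 0 on day 1, Mmp8 on every day, Csf3r on day 1 and Cxcr2 on day 14, and in the highest Mmp8 was at 0 on day 7. Their part in the member levels was not tested.

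Crossing both rankings gave 4 classes of spots in each section, set by ranks within that section and not by a fixed level of the ranking genes. Spots in neither highest quartile had a summed member level of 192, 153, 156 and 87.7 CPM on days 1, 4, 7 and 14. Spots in the highest stress quartile alone were at 734, 320, 256 and 105 on these days, which was 3.82-fold the neither class on day 1 (log2 interval 1.82 to 2.04) and 1.20-fold on day 14 (0.08 to 0.45). Spots in the highest matrix quartile alone were at 498, 539, 573 and 285, from 2.59-fold on day 1 to 3.67-fold on day 7. Spots in both were at 828, 524, 370 and 199. On day 1 the summed level of the stress class thus lay above that of the matrix class. On days 4, 7 and 14 it lay below, and the intervals of the 2 sums did not overlap on any day. The day 1 order was not one for each gene: Jund was at 62.2 CPM in the stress class and 71.6 in the matrix class. Every other member was higher in the stress class, but only for Ier3 and Fosb (16 and 1 UMIs) did the intervals not overlap. No value over all genes was set beside these classes. Scaled to total UMIs, the median tested gene was higher in the highest than in the lowest quartile of both rankings. Over the 4 sections that log2 difference was 0.62 for the matrix and 0.11 for the stress ranking. Its part in the order of the classes was not tested.

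Ier3 was at 272 CPM in the stress class of day 1 and at 125 in the matrix class, and at 110 and 120 on day 4, where the intervals overlapped. Fos was at 24.6 in the stress class and 10.5 in the matrix class on day 1, with overlapping intervals, and at 9.23 and 36.9 on day 4, without overlap. The classes also differed in their cells: on day 4 the summed cardiomyocyte markers were at 31466 CPM in the stress class and 4496 in the matrix class, and on day 1 at 30329.5 and 31649. The summed macrophage markers were at 726 and 2535 in the stress and matrix class on day 4 and at 192 and 1320.5 on day 14, and the neutrophil markers at 19.9 and 410.1 on day 14. Their part in the member levels was not tested. Median depth in the matrix class was 5418 UMIs per spot on day 4 and 1280 on day 14, beside 8753.5 and 9299 in the stress class.

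**Figure D5:**
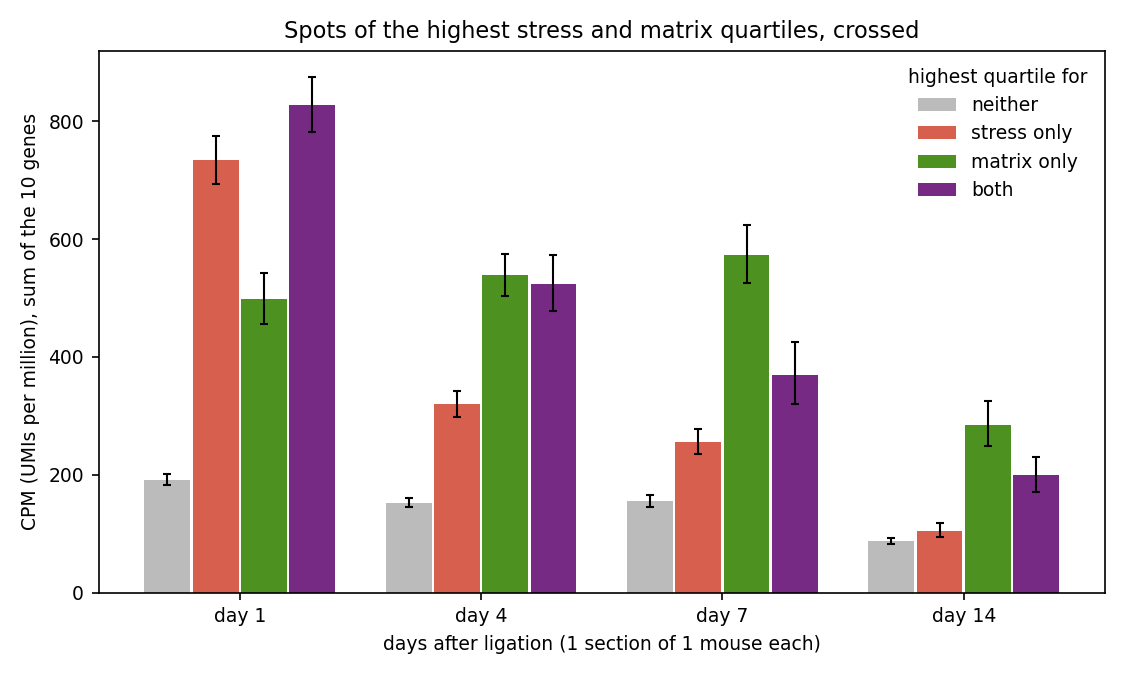
Summed CPM of the 10 genes in spots of the highest stress quartile alone, the highest matrix quartile alone, both or neither, with exact Poisson 95% intervals, 1 section per day. The stress class is at 734 on day 1 and 105 on day 14, and the matrix class is at 498, 539, 573 and 285 on days 1, 4, 7 and 14. Classes are ranked within each section, so a class does not hold the same level of ranking genes on each day.

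Shares of spots were also compared at equal depth. With each spot thinned to 1300 UMIs, 34.1% of spots had a UMI of any member on day 1 (31.9 to 36.3), 28.0% on days 4 and 7 and 13.5% on day 14 (12.0 to 15.1), where 202 spots were too shallow to enter. Without thinning the shares were 74.4%, 80.0%, 62.1% and 51.8%. On day 1 the thinned share was 18.5% in the lowest and 57.9% in the highest stress quartile. On day 14 it was 9.20% in the lowest and 28.2% in the highest matrix quartile, from which 188 spots were too shallow to enter, against 11 from the lowest. No class of spots known to lack these genes was at hand, so free RNA was not set apart.

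Spots were also ranked by the summed share of cell type markers, and the highest quartile was set against the other spots of the section. The values are log2 ratios of CPM. No value over all genes was set beside them, so how far other genes shared these ratios was not tested. In the highest myofibroblast quartile the summed members were higher on every day, by log2 ratios of 1.37, 1.56, 1.33 and 1.06 on days 1, 4, 7 and 14. The macrophage ranking gave 0.86, 1.28, 1.17 and 0.89, and the cardiomyocyte ranking -1.19, -0.80, -0.66 and -0.14. The smooth muscle ranking, whose marker Acta2 is also on the myofibroblast list, gave 1.74, 1.31, 0.38 and 0.28. The neutrophil ranking gave 1.34 on day 1 and 0.39, 0.21 and 0.25 later, when only 217, 123 and 125 kept spots held any neutrophil marker UMI. Those were fewer than the 419, 462 and 521 spots of a highest quartile on days 4, 7 and 14. The rest of each quartile were spots without such a UMI, taken by their listed order. The later ratios therefore do not describe neutrophil-rich spots. The fibroblast ranking, on markers of resting fibroblasts, gave -0.55 on day 1 and 0.27, 0.87 and 0.97 on days 4, 7 and 14. Among single members, Fos had log2 ratios of 2.90, 2.29 and 2.95 in the myofibroblast ranking on days 4, 7 and 14. These came from only 113, 61 and 19 Fos UMIs in all kept spots of those sections.

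Other genes of the same programme were read from lists. Along the stress ranking, over all kept spots, 1 of 5 tested AP-1 family genes, 1 of 7 further immediate early regulators and 1 of 15 feedback and effector genes rose in the edgeR test and none fell, beside 1.01% of all genes called higher and 0.294% called lower. These were Mafk, a small Maf partner (log2 fold change 0.94, SE 0.18, adjusted p = 0.0274), Ier5, a relative of Ier2 (1.04, SE 0.19, adjusted p = 0.0228), and Hbegf, a growth factor ligand of the EGF receptor (1.86, SE 0.37, adjusted p = 0.0298). Each was higher in 4 of 4 sections, but these calls depended on the sections and settings used. All 3 were called without the day 1 section, none without day 4 (adjusted p from 0.234 to 0.279) or day 7 (0.186 to 0.187), and Hbegf alone (0.0499) without day 14. Without day 4, 0 of 4765 genes were called higher, and without day 7, 5 were. The log2 fold changes without day 4 were 1.03 for Mafk, 1.16 for Ier5 and 2.04 for Hbegf. None was called without the section block, with 3 classes in place of quartiles or with only the compared quartiles. Those settings called 2, 1 and 1 genes higher. DESeq2 called Mafk, Ier5 and Hbegf, among 97 genes called higher. None of 13 upstream factors and kinases, 2 Myc partners and 17 textbook targets passed. With the matrix-rich quartile removed, 2 of 5, 4 of 7, 7 of 15, 1 of 13, 0 of 2 and 10 of 17 rose, beside 16% of all genes called higher and 17.2% called lower.

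Along the matrix ranking 4 of 5 AP-1 family genes, 5 of 7 further regulators, 12 of 15 feedback and effector genes, 5 of 13 upstream genes, 1 of 2 Myc partners and 15 of 17 textbook targets rose, beside 37% of all genes called higher and 34.7% called lower. Of the AP-1 family, further regulators and Myc partners none fell, of the feedback and effector genes 1 did and of the textbook targets 2 did. Examples, chosen after their values were seen, were Fosl2, a Fos relative (1.66, SE 0.16), Cebpd, an inflammatory regulator (1.73, SE 0.13), Ccn2, a matricellular protein also known as connective tissue growth factor (2.07, SE 0.34), and Timp1, an inhibitor of matrix metalloproteinases (5.67, SE 0.51). Genes that fell, also chosen after their values were seen, included Dusp1 (-0.42), Mapkapk2 (-0.57), Vegfa (-0.87) and Ldha (-0.45), and with total UMIs Dusp1, Mapkapk2 and Ldha turned to values above 0. By CPM, Dusp1, Mapkapk2 and Vegfa were each higher in 2 of 4 sections and Ldha in 3. Dusp1, the phosphatase that switches off MAP kinases, therefore had no settled direction. The lists' medians were 0.84, 0.67, 0.92, 0.06, 0.51 and 1.10 in the order given, beside 0.03 for all genes.

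Over the 16 section and stress-quartile libraries, which share sections and depth, pairs of members had Pearson correlations from 0.556 (Jund and Myc) to 0.924 (Junb and Ier2). Correlations over all gene pairs were not computed, so whether members were more alike than other genes was not tested. The most alike genes outside the group, given next, were picked as the highest of 4760 searched. Their values therefore cannot be compared with those of the member pairs. Among 4760 genes searched, those whose log2 level was most like the summed members were Ddx39b (r = 0.979), Snd1 (0.975) and Rtn4 (0.974). For Ier3 they were Eif4ebp1, Serpinb1a and Mcl1 (0.960, 0.959 and 0.940), for Ier2 Rps6, Rpl5 and Hnrnpab (0.984, 0.979 and 0.974), for Junb Tor3a, Ap1s1 and Ifitm3 (0.968, 0.966 and 0.966), for Jun Dhdds, Hdgf and Cyb5r1 (0.963, 0.951 and 0.946) and for Jund Tmbim6, Tmed10 and Rab2a (0.972, 0.957 and 0.953).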

How the data were processed

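Visium libraries of 4 heart sections were analysed from the deposited count matrices (UMI counts per gene and spot), which per the labels the authors made with Space Ranger 1.3.0 on mm10; Seurat 4.1.1 is also named. Spots with more than 1% hemoglobin UMIs were removed, as in the study, whereas its manual removal of tissue-edge spots was not repeated. Spots were ranked within each section by the summed share of 4 stress or 5 matrix genes and cut into 4 quartiles. Summed UMI counts of the 16 libraries were tested with edgeR 4.0.16 (quasi-likelihood, robust, TMM, section block, 9 residual degrees of freedom) in R 4.3.3, on genes with at least 1000 UMIs, ranking genes left out, and Benjamini-Hochberg adjustment over all genes. The lower minimum was 100 UMIs. DESeq2 1.42.0 was an alternative. On simulated data with the counts of the first comparison (4765 genes), 72 of 100 genes changed by 1 on the log2 scale and 13 of 100 changed by 0.5 were recovered, with 2 false calls of 87.

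Single sections carry exact Poisson intervals, exact conditional intervals for ratios and exact Clopper-Pearson intervals for shares, all at 95% and for counting error only. Depth per section was 9292678 to 15713779 kept UMIs. The floor for a count of 0 was 3 UMIs per library. Likeness used log2 of CPM plus 1. Counts of sections in which a gene was higher were made by CPM. Named genes were all members, and of each list the 2 largest rises and falls of the first comparison past the threshold with the same direction in all sections. List genes named for the matrix ranking fall outside this rule. Members and lists were chosen with earlier results of these data known. Promoter sequences are from RefSeq (GRCm38.p6), and 7 of 10 members matched. Computing used Python 3.11.15, numpy 2.4.6, pandas 2.3.3 and scipy 1.17.1. The result of 1 listed gene is not reported here.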

Additional observations from a re-analysis of the deposited data

Results flagged for a closer look

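The summed members showed opposite stress gradients between sections, and the difference between days was not tested, since each day is 1 mouse. The log2 ratio of the highest to the lowest stress quartile was 2.28, 0.58, -0.23 and 0.17 on days 1, 4, 7 and 14, and the intervals of days 1 and 7 excluded 0 on opposite sides. The share of the lowest quartile that also ranked in the highest matrix quartile was 5.07% on day 1 and 53.2% on day 7.

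In the same way, the highest fibroblast-marker quartile against the other spots had log2 ratios of -0.55, 0.27, 0.87 and 0.97 on days 1, 4, 7 and 14. The highest pericyte-marker quartile had -0.48, 0.28, 0.19 and 0.20. Neither difference between days was tested, and no value over all genes was set beside these ratios.

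The hemoglobin-rich spots, left out of all comparisons, held Fos on day 14 at 4.37 CPM (7 UMIs) against 1.21 in the kept spots, a log2 ratio of 1.85 (0.36 to 3.17). No other member in any section had an interval above 0. In the opposite direction, the summed members of the hemoglobin-rich spots had log2 ratios of -0.73 on day 1 (-0.97 to -0.50) and -0.28 on day 7 (-0.45 to -0.11), and intervals below 0 were also found for Atf3 (-1.65), Ier3 (-1.49), Ier2 (-1.02) and Jund (-0.71) on day 1 and for Jun (-0.54), Egr1 (-0.67) and Atf3 (-1.03) on day 7. No adjustment was made for the number of ratios looked at.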

How the results depend on the processing

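For the highest against the lowest stress quartile, 62 genes were called in the reported fit. The count was 104 with total UMIs, 142 with DESeq2, 2 without the section block, 1 with only the compared quartiles, 2 with 3 classes of spots in place of 4, 29 without Ankrd1 in the ranking, 97 with genes of at least 100 UMIs and 133 with no filter. It ranged from 1 to 277 when each section was left out, the highest without the day 1 section. With the matrix-rich quartile removed it was 1584, and with that removal it was 1292 with DESeq2, 2268 with total UMIs and 746, 24, 1221 and 1738 without the section of day 1, 4, 7 or 14. Members called were 4 with the matrix-rich quartile removed, 3 with DESeq2 on those spots, 5 with total UMIs and 0 to 5 when each section was left out, and 0 under every other alternative. The combinations with a further change on those spots, the removal of stress-rich spots and that of skeletal muscle spots were chosen after seeing the data.

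For the highest against the middle stress quartiles, 13 genes were called. The count was 1342 with total UMIs, 834 with DESeq2, 0 without the section block, 1 with only the compared quartiles, 280 with no hemoglobin filter, 579 with spots under 1000 UMIs removed, 1 with 3 classes, 5 with z-scores, 0 without Ankrd1, 1789 with the matrix-rich quartile removed, 27 with genes of at least 100 UMIs, 120 with no filter and 0 to 1209 when each section was left out. Members called were 5 with total UMIs, 4 with DESeq2, 2 with no hemoglobin filter, 2 with spots under 1000 UMIs removed, 5 with the matrix-rich quartile removed and 0 to 4 when each section was left out. For the matrix ranking, 3415 genes were called, 6642 with genes of at least 100 UMIs and 6998 with no filter, and both counted 8 members in place of 5. Without the section block Ier3 (1.08) and Atf3 (1.06) were no longer called.

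Along the stress ranking, Fos turned to -0.020 with DESeq2. With each section left out, Ier2 ranged from -0.051 to 0.62, Fos from -0.60 to 0.39 and Myc from -0.41 to 1.16, each lowest and below 0 without the day 1 section. The summed level of day 7 was 250.1 with a hemoglobin limit of 0.5%, and 11 other settings for the daily sums, and the removal of skeletal muscle spots on day 7, moved them by less than their intervals. Thinning to 800 UMIs gave shares of 24.7%, 19.3%, 19.2% and 10.7%, and no thinning 74.4%, 80.0%, 62.1% and 51.8%. The cause of these changes was not tested. Between days no paired analysis was possible because each day has 1 mouse, whereas quartiles of one section were paired in every test by the section block, except where it was left out. Depth limits Fosb most, with 56 UMIs in all.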
